A study of Mus musculus with 3 samples.

Results

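Mediator is the multisubunit complex that carries signals from DNA-bound transcription factors to RNA polymerase II, and the genes of its subunits were described here in mouse cortical neurons. Its members were taken as the protein-coding genes whose symbol is Med followed by digits, with or without a final l, together with Cdk8, Cdk19 and Ccnc. The rule found 33 genes among the 18130 coding genes with a value. RNA-seq was carried out on total RNA of cortical neurons of WT genotype under the treatment label CON, in 3 libraries that form 1 group, so genes were compared with each other inside each library and no condition was compared with another. The series title places the libraries in a study of DNA supercoiling and topoisomerase use in neurons. Age, sex, strain and culture conditions of the neurons are not given in the sources used here, and nothing says that the libraries came from separate cultures. The p-values below thus ask only how consistently a difference keeps its sign across these samples, whose spread may be technical. Values are TPM, a measure of transcript abundance corrected for transcript length and library size. A gene's level is that of the coding transcript with the most reads, judged by mean TPM times exonic length. Errors are SD over the 3 libraries.

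Mediator is built from head, middle and tail modules joined by the scaffold subunit Med14, and a separable kinase module that docks on the outside. The head and middle contact RNA polymerase II and the general initiation factors, and the tail receives most transcription factors. The kinase module pairs cyclin C with Cdk8 or its paralog Cdk19, is held to the rest of the complex by Med13 or Med13l, and contains Med12 or Med12l, which activate the kinase. Variants in several human Mediator genes, among them MED12 and MED13L, cause disorders of brain development. Med27, Med28, Med29 and Med30 sit between head and tail and are treated as a group of their own.

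As estimated from TPM and exonic length, the libraries held about 34450823, 30443129 and 29939087 reads on the transcripts that represent coding genes. Of these, about 45435, 39373 and 39328 fell on Mediator genes. No 2 libraries had identical values. Of 10 pan-neuronal markers all were at 1 TPM or more, with summed levels of 2430 TPM in replicate 1, 2495 in replicate 2 and 2190 in replicate 3. Astrocyte markers (7 genes) summed to 421, 450 and 514 TPM in the same order, markers of the oligodendrocyte lineage (8 genes) to 67.9, 50.5 and 84.7 TPM inhibitory neuron markers (5 genes) to 274, 287 and 187 TPM and excitatory neuron markers (5 genes) to 403, 398 and 388 TPM. The microglial markers (6 genes) summed to at most 2.09 TPM and the endothelial markers (5 genes) to at most 0.868 TPM, with Tmem119 and Cldn5 at 0 in each library. Proliferation markers (5 genes) summed to 19.9, 15.8 and 19.6 TPM in replicates 1, 2 and 3. In bulk RNA, fewer cells of a type and less RNA per cell cannot be told apart, and the level of a Mediator gene is a sum over all cells present.

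Nearly every Mediator gene was expressed. Of the 33 genes, 32 had a mean of at least 1 TPM, beside 61.8% of all coding genes. The median Mediator gene stood at 7.57, 7.86 and 7.17 TPM in replicates 1, 2 and 3, beside 2.89, 2.90 and 2.91 TPM for all coding genes and 8.18, 8.38 and 8.13 TPM for those at 1 TPM or more. Most members thus lay near the middle of the expressed genes, and Med10 alone lay above 93.7% of all coding genes.

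**Figure D1:**
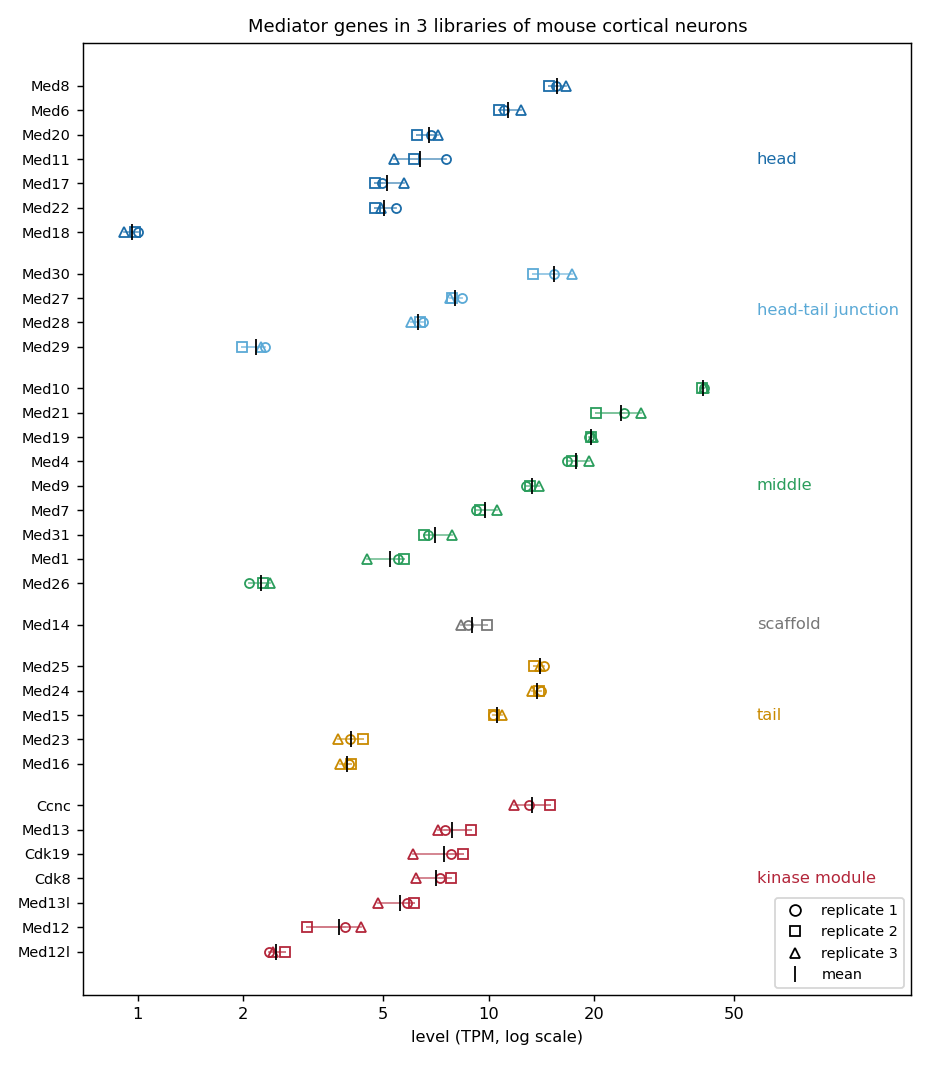
Level of each Mediator gene in TPM (log axis) in replicates 1 to 3 (circle, square, triangle), with the mean as a tick, grouped by module. Med10 stands apart at the top with 40.8 TPM and Med18 at the bottom with 0.966 TPM, and most genes lie between 4 and 20 TPM.

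By the transcript with the most reads, the middle module held the 4 highest genes of the complex. With the coding transcript of highest TPM, Med28, a subunit between head and tail, came second at 30.0 TPM. Med10, a small subunit of the middle module, stood at 40.9, 40.5 and 41.0 TPM in replicates 1, 2 and 3, or 40.8 ± 0.293 TPM (SD, n = 3). Med21, which forms with Med7 the hinge of the middle module, stood at 24.3, 20.1 and 27.1 TPM. These ranges did not overlap, so Med10 was the highest Mediator gene in each library. Med19, another middle subunit, followed at 19.3, 19.6 and 19.9 TPM and Med4 at 16.7, 17.2 and 19.3 TPM. Med19 was nearly the same in the 3 libraries, while Med21 had the widest spread of these 4 genes. The ranges of Med19 and Med4 were only just apart, and 89.6% of the 50-base words of the Med4 transcript that lie in the genome occur once. Med9 reached 13.3 ± 0.561 TPM, Med7 9.73 ± 0.717 TPM and Med31 7.03 ± 0.708 TPM. The low members of the middle were Med1, the docking subunit of nuclear receptors, at 5.25 ± 0.649 TPM, and Med26, which binds elongation factors, at 2.24 ± 0.150 TPM. The module therefore ran over an 18.2-fold range.

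Med18, a head subunit that forms a mobile jaw with Med20, was the lowest gene of the complex. It stood at 1.002, 0.980 and 0.915 TPM in replicates 1, 2 and 3, from 86, 71 and 70 reads. It was the only member with a mean under 1 TPM, at 0.966 ± 0.045 TPM, and its partner Med20 stood at 6.75 ± 0.460 TPM. The ratio of Med10 to Med18 was 40.9, 41.3 and 44.8 in the 3 libraries (42.3 ± 2.19). Counting error alone would give about 11.5% in Med18, more than the 4.69% between libraries, so the SD of the ratio understates its uncertainty. Among the other head genes, Med8, which links that jaw to the rest of the head, was highest at 15.6 ± 0.871 TPM and Med6 followed at 11.4 ± 0.846 TPM. Med17, the central subunit of the head, stood at 5.15 ± 0.509 TPM, Med22 at 5.04 ± 0.357 TPM and Med11, the partner of Med22, at 6.35 ± 1.12 TPM. For Med20, 25.0% of the transcript is shared with the model Gm20517 on the same strand (6.65 TPM), so its value is uncertain.

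The scaffold gene Med14 stood at 8.72, 9.90 and 8.32 TPM. Among the tail genes, Med25, a target of the viral activator VP16, stood at 14.0 ± 0.479 TPM and Med24 at 13.7 ± 0.437 TPM. Med15, which receives SREBP and SMAD factors, stood at 10.5 ± 0.331 TPM. Med23, the docking site of the growth signal factor Elk1, was lower at 4.05 ± 0.330 TPM, as was Med16 at 3.94 ± 0.157 TPM. Tail genes fell into a higher set of 3 and a lower set of 2 whose ranges did not overlap. Between head and tail, Med30 stood at 15.3 ± 1.90 TPM, Med27 at 8.01 ± 0.343 TPM, Med28 at 6.30 ± 0.25 TPM and Med29 at 2.17 ± 0.166 TPM. Of the 50-base words of the Med29 transcript that lie in the genome, 71.4% occur once, so its level is uncertain, and whether reads with several matches were counted is not given in the sources used here.

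The module medians followed the order of these genes. The middle median exceeded the head median by 0.89, 1.09 and 1.26 on the log2(TPM + 0.1) scale in the 3 libraries (1.08 ± 0.19, a 2.11-fold difference), a scale that understates differences of low genes. The tail median exceeded the head median by 0.58, 0.75 and 0.92 (0.75 ± 0.17). Both differences had the same sign in each library. They are scores over chosen genes and carry no p. With members whose reads came out whole only, an alternative chosen after seeing the data that leaves out Med25 and Med15, the tail minus head difference was -0.67, and it was 0.36 with Med27 to Med30 counted with the tail.

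Ordered by mean, 8 of 32 neighbouring pairs of members did not overlap between their 3 values, and 24 did. The matching share for neighbouring pairs of other genes was not computed, so the count describes only the order of these members. The gaps lay at the top, between Med10 and Med21, Med21 and Med19, Med19 and Med4, and Med4 and Med8, and again between Med9 and Med6, Med22 and Med23, Med12 and Med12l, and Med29 and Med18. Overlap was judged over the pooled values, so neighbours that overlap can still keep the same order inside each library. Med14 and Med27 did so, as did Med6 and Med15, while Cdk19 and Cdk8 changed order in replicate 3. The SD as a share of the mean was 7.44% in the median member, from 0.717% in Med10 to 17.6% in Med11, beside 7.88% over all coding genes at 1 TPM or more. Counting error alone, which leaves out that PCR copies are not independent molecules, would give about 2.40% in Med10 and 6.09% in Med11. Of 23 members at 1 TPM or more with whole reads, 19 had an SD above that of counting, beside 87.8% of all such coding genes.

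In the kinase module, cyclin C had the highest level and the MED12 paralogs the lowest. Ccnc, which encodes cyclin C, stood at 13.0, 15.0 and 11.8 TPM in replicates 1, 2 and 3. Cdk8 stood at 7.25, 7.81 and 6.21 TPM and its paralog Cdk19 at 7.82, 8.43 and 6.10 TPM. Both kinases and their cyclin were highest in replicate 2 and lowest in replicate 3. Ccnc lay above either kinase in each library but close to their sum, with a ratio of Ccnc to Cdk8 plus Cdk19 of 0.864, 0.923 and 0.958 (0.915 ± 0.047), and 1.26 when overlapping coding transcripts were summed. Cdk19 minus Cdk8 was 0.11, 0.11 and -0.026 log2 units, 0.064 ± 0.077 in mean, which is smaller than the spread between libraries (two-sided exact sign-flip permutation p = 0.5, 0.5 after Benjamini-Hochberg adjustment over 3 pairs, n = 3).

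The direction of that kinase comparison was not settled. With the coding transcript of highest TPM in place of the one with most reads, Cdk19 minus Cdk8 was -0.15, and of the 50-base words of the Cdk8 transcript that lie in the genome 73.1% occur once. Summing over coding transcripts gave -0.92, but that sum adds 4 transcripts of Cdk8 and 2 of Cdk19 that share reads. On GRCm38, Cdk8 (ENSMUSG00000029635.15) spans 146231230 to 146302874 on chromosome 5, and Cdk19 (ENSMUSG00000038481.13) spans 40339564 to 40483818 on chromosome 10.

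Med12 exceeded Med12l, and Med13 exceeded Med13l, in each of the 3 libraries. Med12 stood at 3.90, 3.03 and 4.32 TPM and Med12l at 2.36, 2.63 and 2.43 TPM. Unlike the kinases, Med12 was lowest in replicate 2, where the pair came closest. Med12l minus Med12 was -0.57 ± 0.32 log2 units (two-sided exact sign-flip permutation p = 0.25, adjusted 0.375 over 3 pairs, n = 3), and Med12l made up 37.7%, 46.5% and 36.0% of the pair's summed TPM. The Med12 transcript shares 10.4% of its bases with the model Gm21986 on the same strand (9.22 TPM), which makes its value uncertain.

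Med13 stood at 7.50, 8.89 and 7.17 TPM and Med13l at 5.83, 6.14 and 4.84 TPM, with ranges that did not overlap. Med13l minus Med13 was -0.36, -0.53 and -0.56 log2 units, or -0.48 ± 0.11 (two-sided exact sign-flip permutation p = 0.25, adjusted 0.375 over 3 pairs, n = 3). The smallest p that 3 libraries allow is 0.25, so no paralog difference could reach 0.05. Med13l made up 41.6 ± 1.86% of its pair. Taken over both paralogs, the ratio of Med12 plus Med12l to Med13 plus Med13l was 0.470, 0.377 and 0.563. Summed over coding transcripts that share reads, 8 of the first pair and 2 of the second, it was 1.82. Med12 lies on chromosome X from 101274030 to 101297465 and Med12l on chromosome 3 from 59005825 to 59318682, a gene of 313 kb. Med13 spans 86267033 to 86357602 on chromosome 11 and Med13l 118560679 to 118765438 on chromosome 5.

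**Figure D2:**
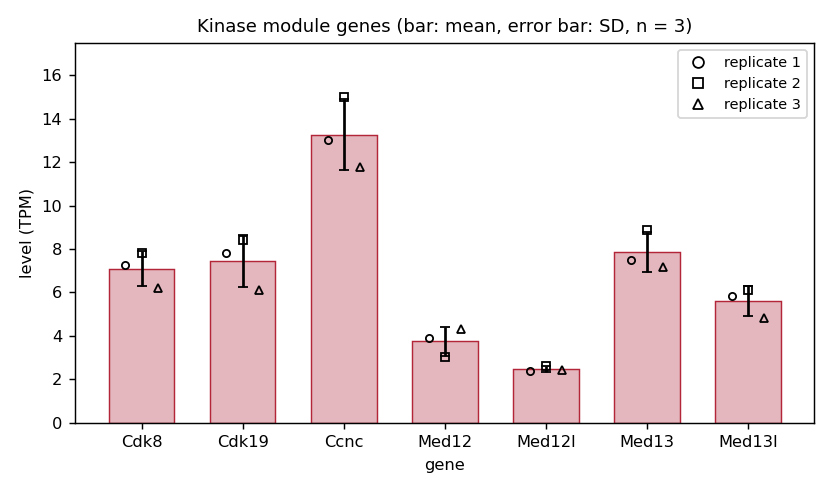
Levels in TPM of the 7 kinase module genes, with bars for the mean, error bars for the SD and points for replicates 1 to 3. Ccnc stands highest at 13.3 TPM and Med12l lowest at 2.48 TPM, and Cdk8 and Cdk19 overlap.

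Set against the 26 genes of the core complex, the 7 kinase module genes had a slightly lower median. The difference was -0.24, -0.14 and -0.40 log2 units in the 3 libraries (-0.26 ± 0.13), from medians of 7.25, 7.81 and 6.10 TPM against 8.56, 8.66 and 8.08 TPM. It was -0.62 with the transcript of highest TPM and -0.091 with members whose reads came out whole. The mean difference over libraries was negative in each of the settings tried, but its size was not fixed by these data. With members whose reads came out whole, the SD over libraries was 0.258, larger than the difference, so the sign was not settled in that setting.

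How a Mediator gene's level reads depends on which of its transcripts is taken. The table lists 148 transcripts of the 33 genes, 89 of them coding, and none was at 0 in each library. For 17 genes another coding transcript had a higher TPM than the one that represents the gene, and for 3 of them, Med28, Med22 and Med7, it was over 1.5 times higher. The 13 genes with a single coding transcript could not be counted here. Choice by TPM times exonic length favours long transcripts, and the matching share over all coding genes was not computed, so these counts are not particular to Mediator.

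The difference was widest in Med28, which joins head and tail. Its representative transcript of 4560 bases stood at 6.49, 6.39 and 6.01 TPM, and a coding transcript of 636 bases, whose exons lie inside it, stood at 32.0, 29.2 and 28.7 TPM. The short transcript had about 895 reads and the long one about 1343, and since its exons lie inside the long model, the reads are largely shared. In Med22, a coding transcript of 973 bases stood at 13.2, 10.98 and 11.3 TPM, beside 5.44, 4.74 and 4.95 TPM for the 3506 bases of the representative. In Med7, a coding transcript of 1193 bases had about 1124 reads and the representative of 2547 bases about 1155, and their levels were 20.2 ± 1.403 and 9.73 ± 0.717 TPM. With the shorter models, Med28 would be the second highest gene of the complex, after Med10. The other 30 genes, 13 of them with a single coding transcript, had no coding transcript at more than 1.5 times the representative level.

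**Figure D3:**
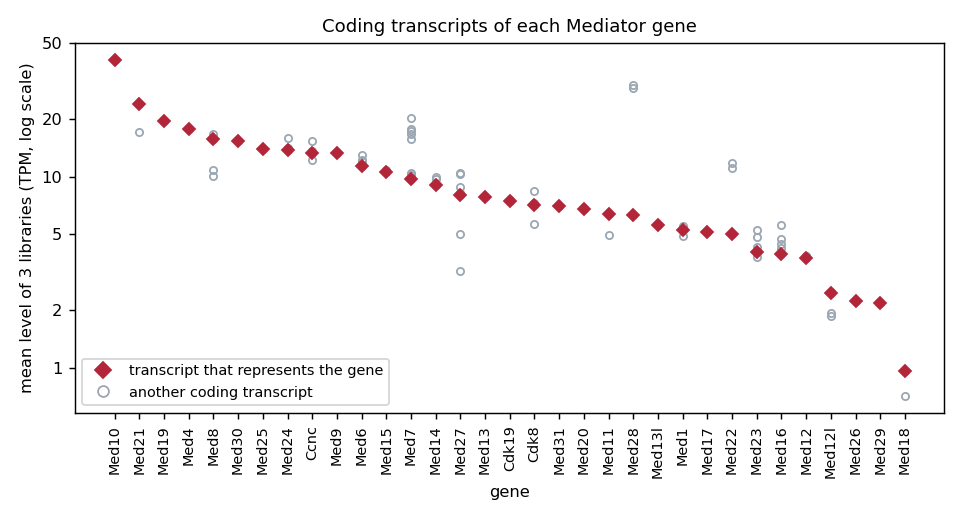
Mean TPM over 3 libraries (log axis) of every listed coding transcript of each Mediator gene, with the transcript that represents the gene as a red diamond and the others as grey circles. Med28, Med22 and Med7 have circles far above their diamonds, at up to 30.0 TPM beside 6.30 TPM in Med28.

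Promoter sequence was examined for the 28 members listed in the RefSeq promoter table of GRCm38.p6, which leaves Cdk19, Med8, Med23, Med24 and Med30. The window before the RefSeq start site lay outside annotated exons of the gene for 11 members, partly in them for 15 and wholly in them for Med12l and Med25. The 250 bases before the start site had a median of 56.8% G and C, beside 61.2% in 8814 promoters of coding genes at 1 TPM or more. The ratio of observed to expected CpG, which is high in CpG islands, had a median of 0.799 in members and 0.761 in those promoters. The 4 promoters below belong to the highest gene, to another high middle gene with several motifs, to the lowest gene and to the highest kinase module gene. They are from RefSeq on GRCm38.p6, 5′ to 3′ on the strand of the gene, with capitals for matches to the motifs named after them. The stretches are chr13:69809632-69809799 (plus strand) for Med10, chr2:84678152-84678401 (plus) for Med19, chr4:132463922-132464171 (minus) for Med18 and chr4:21727451-21727700 (plus) for Ccnc. For Med10 only the 168 bases outside annotated exons of the gene are shown.
Med10: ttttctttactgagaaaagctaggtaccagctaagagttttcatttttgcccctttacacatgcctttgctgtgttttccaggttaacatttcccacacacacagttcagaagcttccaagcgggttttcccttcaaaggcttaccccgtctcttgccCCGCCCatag
Med19: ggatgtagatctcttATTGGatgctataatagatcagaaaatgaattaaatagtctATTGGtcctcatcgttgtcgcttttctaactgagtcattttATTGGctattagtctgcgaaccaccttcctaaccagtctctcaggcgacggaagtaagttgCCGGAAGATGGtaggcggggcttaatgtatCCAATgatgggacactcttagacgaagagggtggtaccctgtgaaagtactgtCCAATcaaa
Med18: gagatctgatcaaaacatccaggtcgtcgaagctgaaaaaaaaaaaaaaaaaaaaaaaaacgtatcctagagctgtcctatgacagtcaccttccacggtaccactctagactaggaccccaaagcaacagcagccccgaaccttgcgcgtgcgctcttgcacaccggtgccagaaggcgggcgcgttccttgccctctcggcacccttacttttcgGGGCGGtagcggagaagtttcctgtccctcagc
Ccnc: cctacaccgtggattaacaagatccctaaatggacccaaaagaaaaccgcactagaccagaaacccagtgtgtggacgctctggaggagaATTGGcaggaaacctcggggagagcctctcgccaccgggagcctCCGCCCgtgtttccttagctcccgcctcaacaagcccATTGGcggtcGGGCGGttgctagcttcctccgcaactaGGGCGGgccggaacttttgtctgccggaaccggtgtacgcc

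A total of 5 motifs were searched on both strands in those 250 bases. The GC box (GGGCGG) stood in 19 of 28 member promoters (67.9%), beside 62.8% of promoters of genes at 1 TPM or more, and the CCAAT box (CCAAT) in 11 (39.3%), beside 36.4%. The GC box count includes the wholly exonic Med12l window. Med1 counts for both boxes, though 147 bases of its window are exonic and its start site lies 387 bases from that of the transcript measured. The ETS motif (CCGGAAG) stood in 5 promoters, those of Med4, Med10, Med14, Med17 and Med19 (17.9%, beside 14.9%). In Med10 the match lies in the 82 bases of the window that are exonic and not printed. The YY1 motif (AAGATGG) stood in 4, those of Med19, Med22, Med25 and Med31 (14.3%, beside 4.21%), and the Med25 window is exonic and its start site lies 288 bases from that of the transcript measured. The TATA box (TATAAA) stood in Med16 and Med28 only (7.14%, beside 5.62%). In all 13918 coding promoters matched, the shares were 52.0%, 35.6%, 11.2%, 4.05% and 8.54% in the same order. In Med19 the ETS and YY1 matches overlap, and its printed stretch holds 5 matches of the CCAAT box in either direction. In the printed stretch of Ccnc there are 3 GC boxes and 2 CCAAT boxes, and in that of Med18 a single GC box. These matches describe letters in a window and were not tested against binding.

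The genes that work beside Mediator stood at like levels. The median of 31 transcription initiation factors was 7.31, 7.60 and 7.27 TPM, and the Mediator median differed from it by 0.050, 0.048 and -0.020 log2 units (0.026 ± 0.040). That difference was 0.27 with the transcript of highest TPM. All 31 were at 1 TPM or more. Among the general factors, Gtf2f1, a TFIIF subunit, was highest by mean at 32.3 ± 4.76 TPM, with a range that overlapped that of Gtf2a2 (29.0 ± 2.35 TPM), and Tbp, the TATA-binding protein, was lowest at 1.59 ± 0.074 TPM. In TFIIH the range ran from Gtf2h5 at 41.5 ± 1.59 TPM to Gtf2h4 at 3.31 ± 0.300 TPM, and in TFIID from Taf9 at 19.4 ± 1.90 TPM to Taf5 at 1.82 ± 0.321 TPM. Of the 6 other transcriptional kinase and cyclin genes, each at 1 TPM or more, Cdk9, the kinase of P-TEFb, was highest at 16.8 ± 1.18 TPM and Cdk12 lowest at 2.86 ± 0.174 TPM.

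Of 15 factors known to bind Mediator subunits, 13 were at 1 TPM or more. Thra, a thyroid hormone receptor gene listed for binding to Med1, was highest at 300, 295 and 294 TPM, against 5.51, 5.73 and 4.51 TPM for Med1. The Thra level is that of 1 coding transcript, and which protein form it encodes was not examined. Rest, the repressor of neuronal genes that binds Med19 and Med26, was lowest by mean at 0.741 ± 0.039 TPM, with a range that overlapped that of Gli3 (0.748 ± 0.081 TPM). Of the levels compared here, Thra and Med1 thus lay far apart in each library, while Rest lay below both of its Mediator partners.

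The members did not move as a block between libraries. Replicate 3 was highest for 15 of the 32 members at 1 TPM or more, beside 31.4% of all coding genes at that level, and lowest for 13, beside 41.0%. With no minimum these counts were 15 and 14 of 33, beside 31.3% and 34.1%. Most middle and kinase module genes lay on opposite sides, but the modules also differ in length, with median exonic lengths of 1920 and 6940 bases. Of 9 middle genes 8 were highest in replicate 3, all but Med1, and of 7 kinase module genes 5 were lowest there, all but Med12 and Med12l. For Med10 and Med19 the deviation of replicate 3 was only 0.011 and 0.031 log2 units, with counting errors of 2.40% and 2.30%. The largest positive deviations of replicate 3 from the mean of replicates 1 and 2 were 0.32 log2 units in Med12, 0.29 in Med21 and 0.26 in Med30. The most negative were -0.41 in Cdk19, -0.34 in Med11 and -0.31 in Med1.

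Transcript length moved with these deviations. Of 8 members with over 5000 exonic bases, 6 were lowest in replicate 3, beside 53.3% of all coding genes of that length at 1 TPM or more, and 1 was highest, beside 18.1%. Their median deviation was -0.18 log2 units, beside -0.087 for those genes. Of 7 members above 3000 and up to 5000 bases, 4 were lowest, beside 42.6%, and 2 highest, beside 29.8%. Shorter members leaned the other way. Of 6 members above 2000 and up to 3000 bases, 1 was lowest, beside 36.1%, and 4 highest, beside 37.4%. Of 8 members above 1000 and up to 2000 bases, 1 was lowest, beside 31.9%, and 6 highest, beside 40.7%, with a median deviation of 0.15 beside 0.020. Of the 3 shortest, 1 was lowest, beside 33.8%, and 2 highest, beside 37.7%. Over the 33 members, Spearman's rho between exonic length and the deviation was -0.47, and over 11205 coding genes it was -0.21. Both are across genes of the same libraries, which are not independent replicates. Of the marker genes, 9 of 10 pan-neuronal, 5 of 5 inhibitory and 3 of 5 excitatory neuron markers were lowest in replicate 3, and the excitatory sum differed far less than the inhibitory one. In the same library 5 of 7 astrocyte and 5 of 8 oligodendrocyte lineage markers were highest. The part that cell makeup and RNA quality have in the deviations was not tested.

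**Figure D4:**
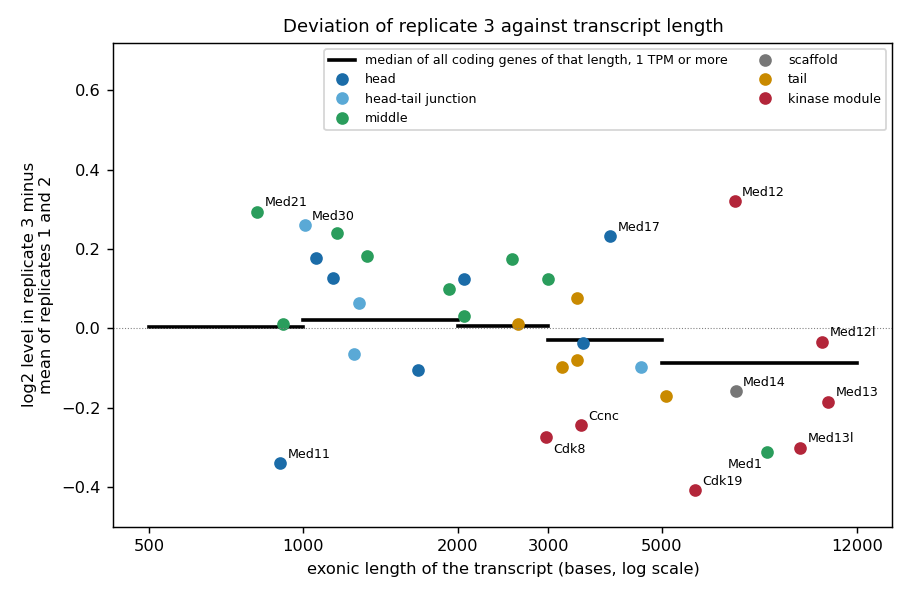
Log2 level in replicate 3 minus the mean of replicates 1 and 2 for each Mediator gene, against exonic length in bases (log axis), coloured by module, with black lines for the median of all coding genes of that length. Kinase module genes lie at or below -0.034 with the exception of Med12 at 0.32, and 8 of 9 middle genes lie above 0.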

How the data were processed

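TPM values of 84660 transcripts of GENCODE mouse release 4 were deposited as 1 table. The submitters' processing notes list mm10 as the build and name STAR 2.5.3a, Subread 1.4.6, featureCounts and FastQC 0.11.2, with roles not given in the sources used here. Transcript identifiers, version removed, were looked up in GENCODE release 21 (GRCm38), which held all but 1643 of them.

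The product of TPM and exonic length is proportional to reads. Whole reads, within 0.01, came out for 89.985%, 90.003% and 89.964% of rows above 0 and for 24 of 33 members. The other 9 members have other transcript ends in the 2 releases, so their read counts are approximate. Counting errors cover counting only. Transcripts of a gene share reads. For the antisense model Gm26819, which covers 90.9% of the Med10 transcript, the level was 0.0028 TPM beside 40.8 TPM for Med10. Uniqueness was measured with 50-base words, every 10 bases, on 22 chromosomes of GRCm38.

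Differences were taken per library on the log2(TPM + 0.1) scale, and 3 paralog pairs were tested by exact permutation of signs, two-sided. Every member could be named, and of each other list the highest and the lowest gene. Elsewhere genes were named after their values were seen. Members, lists and tests were chosen with earlier results of these data known. Recovery of reads and the replicate 3 deviation were tried on simulated libraries with independent counts and no reads shared between transcripts, unlike these data. The sign-flip p was tried on made-up differences. Module medians, ratios and correlations were not simulated. Alternatives were other pseudocounts, transcripts, minima, modules and each replicate left out. Python 3.11.15, numpy 2.4.6, pandas 2.3.3, scipy 1.17.1 and matplotlib 3.10.9 were used.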

Additional observations from a re-analysis of the deposited data

How the results depend on the processing

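No paired analysis was possible because the labels give 1 group, so replicate numbers pair no samples across groups; the paralog tests compared genes within each library. Over the results that answer a comparison, pseudocounts of 1 and 0.01 and leaving out each replicate turned no mean direction and moved no difference by more than its SD. Relative to their size, though not in log2 units, the smallest differences moved most: Cdk19 minus Cdk8 was 0.041 without replicate 1 or 2 and 0.108 without replicate 3, and Mediator minus initiation factors was 0.014, 0.015 and 0.049 without replicates 1, 2 and 3. Without 1 replicate the middle minus head difference ran from 0.99 to 1.18, tail minus head from 0.67 to 0.83, kinase module minus core from -0.32 to -0.19, and Med12l minus Med12 from -0.75 to -0.45. With the coding transcript of highest TPM, Cdk19 minus Cdk8 was -0.15, kinase module minus core -0.62, middle minus head 1.33, Mediator minus initiation factors 0.27 and the ratio of Ccnc to both kinases 0.978. Summing coding transcripts, which counts shared reads repeatedly, gave -0.92, -0.59, 0.67, 0.68 and 1.26 for these, 1.02 for tail minus head and 1.82 for the ratio of the Med12 pair to the Med13 pair. The alternatives for both ratios were also chosen after seeing the data. With genes at 1 TPM or more, Mediator minus initiation factors was 0.070. With Med27 to Med30 counted with the tail, tail minus head was 0.36. In alternatives chosen after seeing the data, members whose reads came out whole gave -0.091 for kinase module minus core, 0.79 for middle minus head and -0.67 for tail minus head, with fewer genes in each module. Members with at least 90% unique 50-base words gave -0.40, 0.86 and 0.070 for kinase module minus core, middle minus head and Mediator minus initiation factors. Counts of members expressed, and highest or lowest in replicate 3, stayed within 1.5 times in each setting tried. Depth limits Med18 most, where 70 to 86 reads give a counting error of 11.5%.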

Other observations

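Exonic length and level ran in opposite directions over the members, though exonic length is also the divisor of TPM and takes part in the choice of transcript. Over the 33 members, Spearman's rho between exonic length and mean TPM was -0.45, beside -0.12 over 11205 coding genes at 1 TPM or more, with coding length it was -0.26, beside -0.15, and with genomic length -0.10, beside -0.031. These are descriptions across genes, which are not independent replicates. The 3 members with up to 1000 exonic bases were Med10, Med21 and Med11, with a median of 23.8 TPM, but Med11 at 6.35 TPM lay below the Mediator median, and the 8 members over 5000 bases had a median of 5.42 TPM, beside 13.1 and 6.74 TPM for all coding genes of those lengths.

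Transcripts without a coding sequence were also listed for some members, and reads of overlapping transcripts cannot be told apart. For Med19, a transcript of 778 bases whose exons lie inside the representative stood at 29.3, 30.6 and 32.0 TPM, beside 19.3, 19.6 and 19.9 TPM. For Ccnc, a transcript of 1247 bases stood at 18.7, 20.4 and 17.6 TPM, beside 13.0, 15.0 and 11.8 TPM.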
